A study of Drosophila melanogaster with 4 samples.

Results

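The binding sites described here are the 351 Atonal peaks on the left arm of Drosophila melanogaster chromosome 3 (3L) that start below 22500000 bp, the part of the arm away from its centromere. They were chosen by position alone, at a limit set with earlier results of these data known. They make up 5.79% of the 6065 peaks in the deposited list and 351 of the 780 peaks on 3L. Eye imaginal discs, the larval epithelia from which the compound eye forms, were dissected from L3 larvae, the last larval stage, of the knock in IMAGO line ato:GFP, in which Atonal is fused to green fluorescent protein. Larvae were kept at 25 degrees without treatment, and the protocol describes 800 discs from 400 larvae, fixed and sonicated. Chromatin immunoprecipitation followed by sequencing (ChIP-seq) with an anti-GFP antibody gave 2 ChIP libraries, and 10% of the sonicated material gave 2 input libraries. All 4 libraries come from the fusion line, so the reference for each peak is input chromatin of the same genotype and not an immunoprecipitation from untagged discs. The tag marks whichever cells of the pooled discs make Atonal, so a peak does not tell how many cells or which cells held it.

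Atonal is a proneural transcription factor of the basic helix-loop-helix class. With its partner Daughterless it binds short E-box sequences, and in the eye disc it is expressed at the morphogenetic furrow, where it singles out the R8 cell, the founder photoreceptor of each ommatidium. It acts through further regulators, among them the zinc finger protein Senseless, which maintains the R8 fate, and it is opposed by Extramacrochaetae, which lacks a basic region and takes proneural proteins out of DNA-binding dimers. The gene table places sens and emc on 3L, together with rho and ru, which encode rhomboid proteases that release the ligand of the epidermal growth factor receptor, and scrt, a neuronal zinc finger gene. That table describes Release 6 of the fly genome. The sequence names of the peak list, among them scaffolds ending in Het, are those of Release 5, so peaks are given here by Release 5 position and none was assigned to a gene, exon or sequence motif.

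The list carries the authors' own values for each peak and no value for any single library. It gives 1 fold of ChIP over control, 1 p-value and 1 q-value a peak. Library depth is therefore unknown, no error between replicates can be given, and the 2 ChIP libraries cannot be compared. The fold and the p-value together fix the pair of levels they were computed from, and these are shown beside the fold below. The ChIP level is the number of fragments over the summit of a peak. The control level is the value the authors' peak caller set against it, scaled to the ChIP libraries. In all 6065 peaks the control level was either a common lowest value of 17.5 or a whole number of control fragments times a fixed unit of 0.576, counted at the summit or averaged over 1000 or 10000 bp. The fragment length that made these counts whole was 69 bp, and 69 bp was also the smallest peak width in the list. The highest ChIP level and the highest control count in the list were both 138, or 2.00 times that length. That ChIP level was shared by 93 peaks of the list, none of them in the 3L set, where the highest was 132. Whether a ceiling at 138 lowered the levels and folds of peaks close under it was not tested. Intervals given for a ratio of the 2 levels cover counting error alone, of both counts except at the lowest control level. There the control was taken as fixed and only the ChIP count has an error, so those intervals are narrower by method. None of the intervals covers the spread between libraries, nor the choice of each summit as a local maximum.

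Most of the 351 peaks were narrow and only weakly enriched. The fold had a median of 1.94, quartiles of 1.75 and 2.16, and a range of 1.42 to 5.54. Enrichment was 2-fold or more at 159 peaks (45.3%), 2.5-fold or more at 31 (8.83%), and 3-fold or more at 13 (3.70%). Over the whole list, which includes peaks beside the centromeres, 6.88% of peaks reached a fold of 2.5 and 1.43% a fold of 3. On 2L, 2R, 3R and X together, away from the centromere, these shares were 9.53% and 2.5%. The share at 2-fold was not computed over the list, so the 45.3% has no reference there. Widths had a median of 108 bp and quartiles of 85.0 and 153.5 bp, and 149 peaks (42.5%) were under 100 bp wide. The widths of 11 peaks equalled the 69 bp minimum, whereas 3 peaks were over 500 bp. All peaks of the set together covered 47569 bp, or 0.211% of the 22.5 Mb. The −log10 q had a median of 2.97, and 78 peaks (22.2%) had a q between 0.01 and the list's limit of 0.05.

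**Figure D1:**
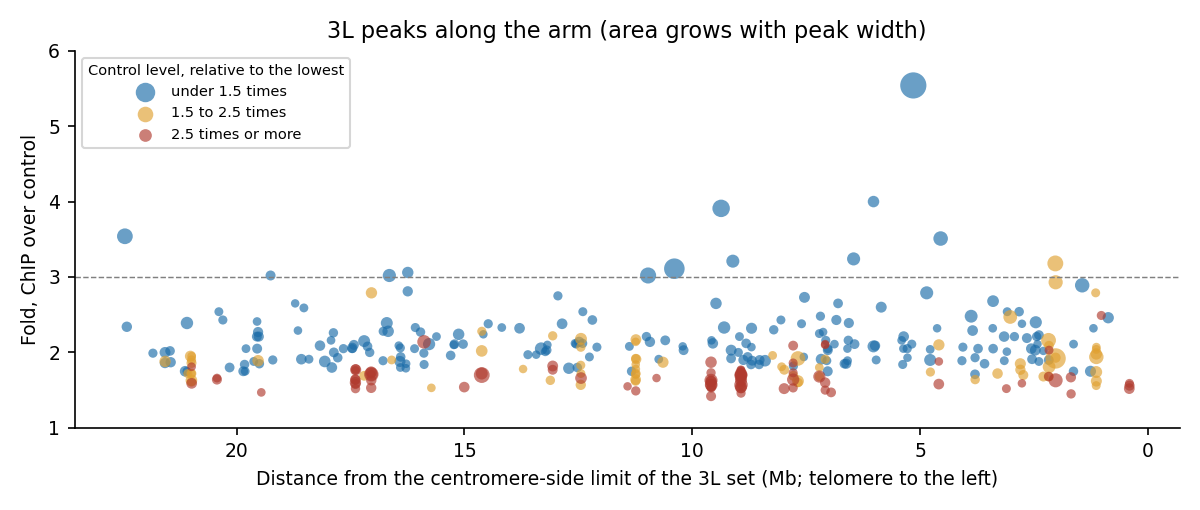
Fold of ChIP over control (vertical axis) for each of the 351 peaks of 3L against distance from the centromere-side limit of the set in Mb, with the telomere to the left. Point area grows with peak width and colour gives the control level relative to the lowest in the list; the 13 peaks at or above the dashed line of 3 are scattered over the arm, and the columns of points at low fold are loci with several peaks at a raised control level.

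Peaks were present along the whole stretch but unevenly spaced. The 22 full bins of 1 Mb held between 5 and 31 peaks, with a median of 15.5. The fullest were 13 to 14 Mb with 31 peaks, 5 to 6 Mb with 28 and 15 to 16 Mb with 27, and the emptiest was 8 to 9 Mb with 5. Cut into equal stretches of 7.5 Mb, the arm held 107 peaks nearest the telomere, 124 in the middle and 120 nearest the centromere. The median fold of these stretches was 1.93, 1.89 and 2.04, and the number of peaks at a fold of at least 3 was 4, 4 and 5. No gradient toward the centromere was therefore visible within the set. Beyond it the density was far higher on average, with 429 peaks in the remaining 2.01 Mb of 3L, or 213.1 per Mb.

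The rank of the fullest bins rested partly on a few crowded loci. After peaks within 500 bp of each other were merged into regions, the bin at 13 to 14 Mb held 20 regions, that at 5 to 6 Mb 19, and that at 15 to 16 Mb 23. The bin at 13 to 14 Mb had 14 peaks with a control level of at least 2.5 times the lowest, and so did the bin at 5 to 6 Mb, whereas the bin at 15 to 16 Mb had 6. The bin at 4 to 5 Mb held 9 peaks in 9 regions, all of them with a control level below 1.5 times the lowest, referred to from here on as low-control peaks. The last peaks inside the limit lay between 22093392 and 22098644, with folds of 1.52 to 1.59, and 401356 bp without a peak followed up to it. The first peak outside it, chr3L:22737258-22737333, had a fold of 1.79, so the limit fell in a stretch with no peak.

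The distance between neighbouring peaks had a median of 23.2 kb and ranged from 76 bp to 673 kb. The quartiles were 1034 and 79603 bp. Gaps of over 100 kb numbered 72 of 350 and took up 70.0% of the stretch. The longest was chr3L:10408330-11081145, followed by chr3L:12310832-12912550 with 602 kb and chr3L:90038-662880 with 573 kb. At the other end of the range, 60 gaps were at most 500 bp, and 119 peaks (33.9%, 95% interval 29.0% to 39.1%, exact binomial) had another peak within 1000 bp. Merging peaks within 500 bp left 291 regions, of which 257 held 1 peak, 21 held 2, 7 held 3 and 6 held 4 to 8.

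Crowded peaks and isolated peaks differed in the level of their control. Of the 202 low-control peaks, 20 (9.90%, 95% interval 6.15% to 14.9%) had a neighbour within 1000 bp. That share was 42 of 71 (59.2%, 46.8% to 70.7%) where control was 1.5 to 2.5 times the lowest, and 57 of 78 (73.1%, 61.8% to 82.5%) where it was 2.5 times or more, where the brackets hold exact binomial intervals as before. Peaks joined with another by the 500 bp merging had a median ChIP level of 81.5 and a median control level of 46.6 fragments, with a median fold of 1.72. Peaks that stayed alone had medians of 44.0 ChIP and 20.1 control fragments and a median fold of 2.03. The crowded peaks thus had more ChIP fragments and still a lower fold, the control being raised by more.

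**Figure D2:**
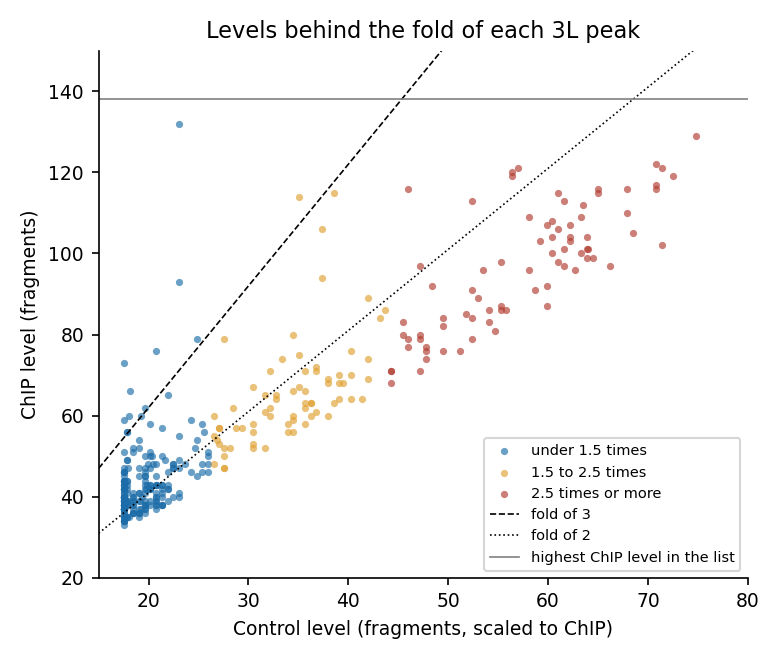
ChIP level (vertical axis, fragments over the summit) against control level (horizontal axis, fragments scaled to the ChIP libraries) for the 351 peaks of 3L, with lines for folds of 3 and 2 and for the highest ChIP level in the list. Colours give the control level relative to the lowest; most peaks run along a band under a fold of 2 or a little over it, and few peaks lie above the line for 3.

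The highest ChIP levels were mostly found where the control level was high too. Over the 351 peaks the ChIP level ran from 33 to 132 fragments and the control level from 17.5 to 74.8. Of the 40 peaks with at least 100 ChIP fragments, 36 had a control level of at least 2.5 times the lowest, and 2 reached a fold of 3, against 13 of all 351. At the lowest control level, which 61 peaks shared, the weakest listed peak had 33 ChIP fragments and a fold of 1.84. Of the 34 peaks under a fold of 1.6, 31 had a control level of at least 2.5 times the lowest. The lowest fold listed thus moved with the control level, and folds under 1.6 were nearly all at a high one. Across the 351 peaks Spearman's rho between fold and control level was −0.69. This is a description over peaks that share libraries, and fold is computed from the control level. At 75 peaks (21.4%) the control level was so high that even 138 ChIP fragments would have given a fold under 3.

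Among the peaks with a low control level, a fold of at least 3 was more frequent at wide peaks, though fold and width were only weakly related. Spearman's rho between fold and width was 0.21 over the 202 low-control peaks and 0.0 over all 351. Of the 21 low-control peaks that were at least 200 bp wide, 9 reached a fold of 3 (42.9%, 95% interval 21.8% to 66.0%, exact binomial), and their median fold was 2.79. Of the 181 narrower low-control peaks, 3 did (1.66%, 0.343% to 4.77%), with a median fold of 2.07. At a raised control level the corresponding counts were 1 of 24 wide peaks and 0 of 125 narrow ones, with median folds of 1.71 and 1.72. Both measures come from the same called peak, so wider and stronger are not separate observations, and no test was made. Over the whole list, 0.528% of peaks combined a fold of at least 3, a width of at least 200 bp and a low control level, against 9 of 351 (2.56%) in the 3L set.

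**Figure D3:**
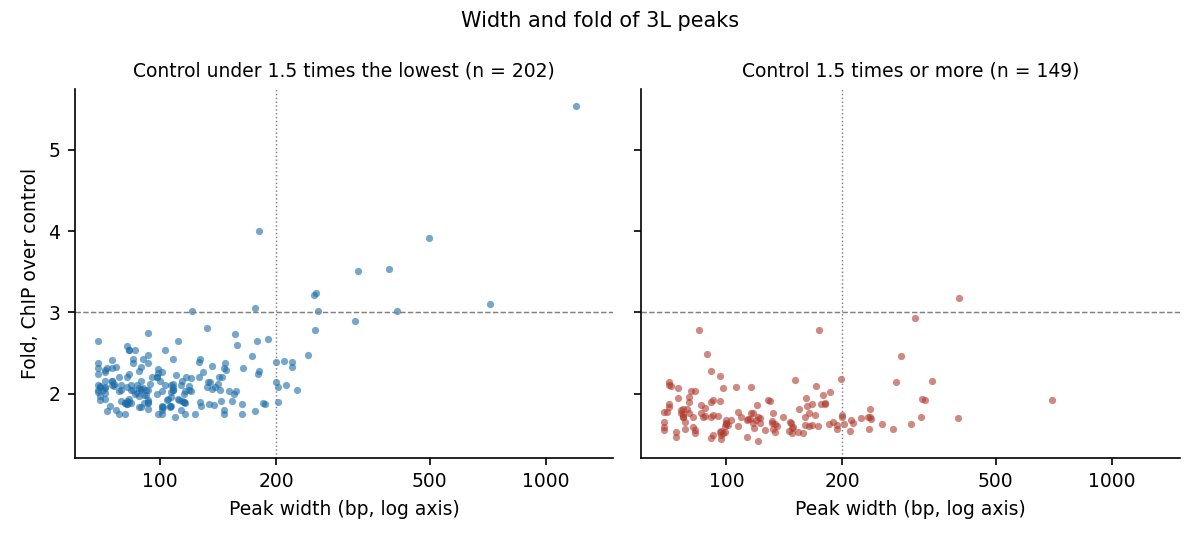
Fold of ChIP over control (vertical axis) against peak width in bp (horizontal log axis) for the 3L peaks, with low-control peaks (below 1.5 times the lowest level) on the left (n = 202) and at 1.5 times or more on the right (n = 149). Dashed lines mark a fold of 3 and dotted lines a width of 200 bp; the upper right of the left panel holds 9 peaks and that of the right panel 1.

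The strongest peak of 3L was chr3L:17352888-17354088, and it had the highest fold, width and −log10 q of the set. It had 132 ChIP fragments over its summit and 40 control fragments, which scale to a control level of 23.0. The ratio of the levels was 5.73 (95% counting interval 4.0 to 8.38), the deposited fold was 5.54 and the −log10 q was 48.5. That interval overlaps those of the next peaks by fold, given below. At 1201 bp it was the widest peak of the 351. Its summit lay 92 bp from the low-coordinate edge, 7.7% of the way across, so that most of the enriched stretch extended to one side. The next peaks lay 33280 bp away on the telomere side and 292253 bp away on the centromere side.

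The peak with the second-highest −log10 q, chr3L:13134640-13135138, had 93 ChIP fragments and 40 control fragments over its summit, so its control level matched that of the strongest peak. Its ratio of levels was 4.04 (2.76 to 6.01) over 499 bp. A short but strong peak at chr3L:16479072-16479252 had 73 ChIP fragments at the lowest control level and a ratio of 4.17 (3.27 to 5.24) over 181 bp. The second-highest fold of the set, 4.0, was found there. It was followed after 79 bp by a peak of 202 bp with 43 ChIP fragments, 35 control fragments and a fold of 2.08. Counted as 1 region, that site was 462 bp long.

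The peak nearest the telomere, chr3L:47785-48177, was among the strongest as well, with 76 ChIP and 36 control fragments and a ratio of 3.67 (2.44 to 5.61). A peak of 326 bp at chr3L:17952689-17953014 had 66 ChIP fragments over a control level of 18.1 and a ratio of 3.65 (2.78 to 4.74). It was followed by 467299 bp without a peak. The second-widest peak, chr3L:12107991-12108706, spanned 716 bp with 79 ChIP and 43 control fragments and a ratio of 3.19 (2.17 to 4.74). The counting intervals of these 3 peaks overlap one another and those of the 2 peaks before them, so that their order by fold is not resolved by the counts.

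The other wide peaks with a fold of at least 3 and a low control level were alike in their levels. Those at chr3L:16042323-16042575 and chr3L:13391594-13391843 had 59 and 60 ChIP fragments over control levels of 17.5 and 18.0. The peak at chr3L:5852185-5852441 had 60 ChIP fragments and that at chr3L:11531797-11532208 had 56, over control levels of 19.2 and 17.8. Their ratios ran from 3.12 to 3.37, and none of the 4 intervals fell below 1.99. The last of them had the same 56 ChIP and 31 control fragments as chr3L:3245140-3245260, yet it was 412 bp wide and the other 121 bp. That narrow peak and chr3L:6256533-6256708 (62 ChIP and 34 control fragments, 176 bp) completed the peaks of at least 3-fold at a low control level. The narrower of them ranked below the 15 peaks of highest −log10 q and was chosen after its values were seen.

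The limit of 3 cut through a continuous range. Just inside it, chr3L:5852185-5852441, chr3L:11531797-11532208 and the narrow chr3L:3245140-3245260 all had a fold of 3.02. Just outside were chr3L:20477118-20477425 with 2.93 and chr3L:21059667-21059986 with 2.89, the second of them 320 bp wide with 65 ChIP and 38 control fragments. The 12 wide, low-control peaks under the limit had folds of 1.90 to 2.89.

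The 13 peaks of at least 3-fold were spread thinly. The shortest distance between neighbours among them was 256 kb, and 10 of the 22 full 1 Mb bins held at least 1. No other peak lay within 10 kb of 10 of the 13, against 155 of all 351 (44.2%). Of the 13, 12 were low-control peaks. Isolation and a low control level went together in the set as a whole too, since 136 of the 155 isolated peaks (87.7%) were low-control peaks.

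The exception at a raised control level was chr3L:20469977-20470378, the third by −log10 q. It had 114 ChIP and 61 control fragments, a control level of 2.00 times the lowest and a ratio of 3.25 (2.36 to 4.51). It began a group of 5 peaks within 7449 bp. The group ended with chr3L:20477118-20477425, next in −log10 q, which had 115 ChIP and 67 control fragments and a ratio of 2.98 (2.19 to 4.09). Between them lay 3 weaker peaks, among them chr3L:20475876-20476574, which spanned 699 bp with 84 ChIP and 75 control fragments and a ratio of 1.95 (1.41 to 2.69). The summits of the outer pair lay toward the high-coordinate edge, 68.2% and 85.4% of the way across, whereas that of the 699 bp peak lay at 12%.

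**Figure D4:**
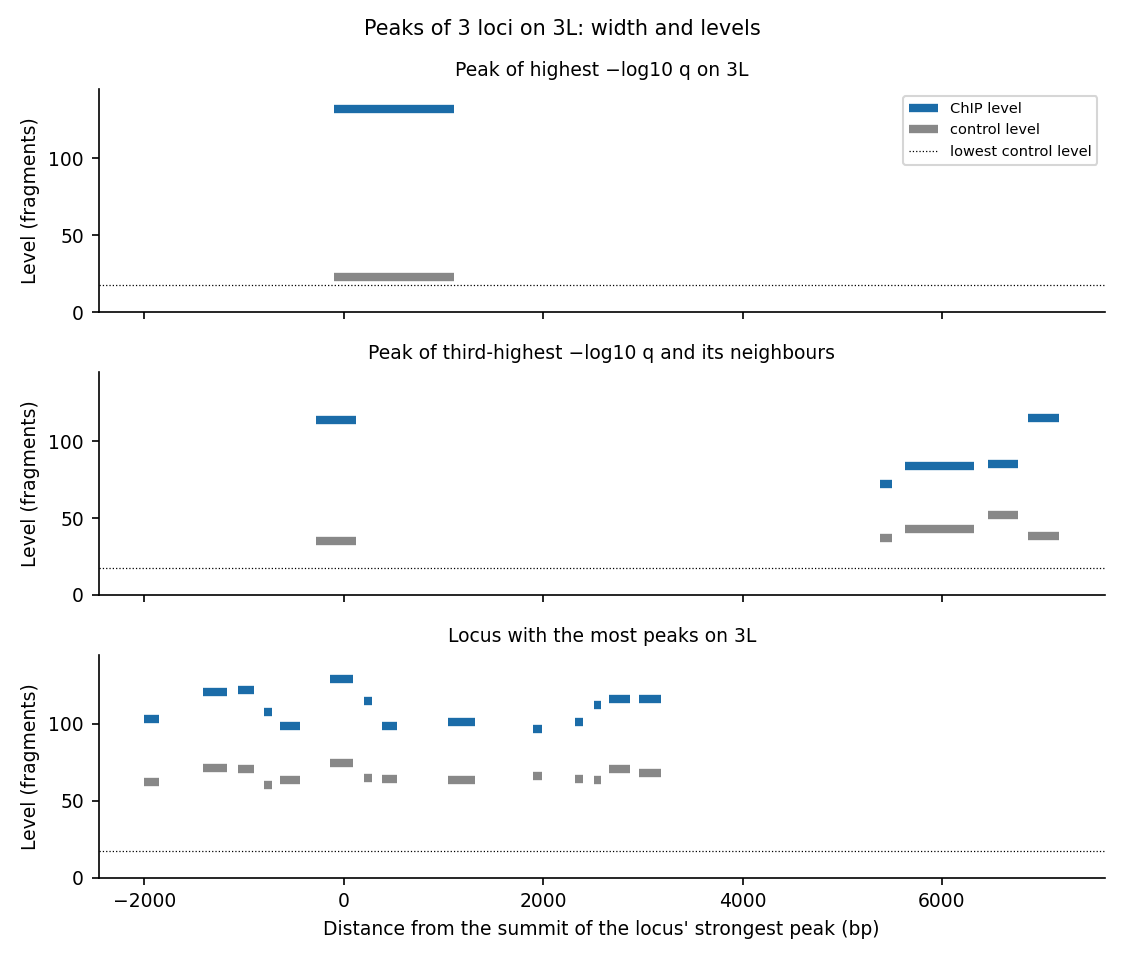
Width and levels of the peaks at 3 loci of 3L, by distance in bp from the summit of the strongest peak of each: the strongest peak of the arm, the group of 5 peaks at 20.5 Mb, and the group of 14 peaks at 13.6 Mb. Blue bars give the ChIP level and grey bars the control level of each peak, both as set for its summit by the peak caller, in a few peaks with control averaged over 1000 bp, and drawn over its width; the dotted line is the lowest control level of 17.5, and the grey bars of the third locus lie at 3.45 times that level or more.

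Further peaks among the 15 of highest −log10 q had ChIP levels of 79 to 116 fragments and folds under 3. The peak at chr3L:5459424-5459597 had 106 ChIP and 65 control fragments and a ratio of 2.83 (2.06 to 3.92). It closed a group of 7 peaks within 6755 bp, and the other 6 had folds of 1.53 to 1.74. The peak at chr3L:21479065-21479153 had 116 ChIP and 80 control fragments (2.52, 1.88 to 3.39), and it was only 89 bp wide. That at chr3L:19480448-19480731 had 94 ChIP and 65 control fragments (2.51, 1.81 to 3.50), and that at chr3L:21355597-21355681 had 79 ChIP and 48 control fragments (2.86, 1.97 to 4.18). For these peaks a high −log10 q rested on many fragments at a moderate ratio. A q-value falls with the number of fragments at equal ratio, so rank by −log10 q is not rank by enrichment.

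The most crowded place on the arm was a locus of 14 peaks at chr3L:13567823-13573006. Its peaks had 97 to 129 ChIP fragments, control levels of 3.45 to 4.27 times the lowest and folds of 1.46 to 1.77. It contained the merged region with the most peaks of the set, 8 within 2536 bp from 13567823 to 13570358, and another of 5 peaks from 13571724 to 13573006. The remaining regions of 5 peaks were chr3L:12912551-12914056, with folds of 1.42 to 1.87, and chr3L:14714746-14715838, with folds of 1.53 to 2.09. Control levels there were 3.48 to 4.14 and 3.22 to 4.04 times the lowest. The lowest fold of the whole set, 1.42, was in the first of these regions.

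Loci of this kind held a good part of the set. When peaks within 10 kb of each other were joined, 12 loci had at least 5 peaks. They held 97 of the 351 peaks (27.6%) in 91.0 kb, and 94 of the 97 had a control level of at least 1.5 times the lowest. A single peak in them reached a fold of 3. The loci ranged from 2447 to 13477 bp in length and lay at 1.5, 5.1, 5.5, 10.1, 11.3, 12.9, 13.6, 14.7, 15.4, 20.3, 20.5 and 21.4 Mb. Whether the raised control at these places had a part in the listing of several peaks was not tested.

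The summit was not centred in many peaks. Among the 45 peaks 200 bp or wider, 22 had it in the middle 50% of their width (48.9%), as had 177 of the 306 narrower ones (57.8%). In the wide peaks its position ran from 7.66% to 89.0% of the way across, with a median of 55.5%. The strongest peak gave the lowest of these values.

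Set beside the same stretches of the other large arms, the 3L peaks were somewhat sparser, a difference that depended on the settings. For 2L, 2R, 3R and X the 2 Mb next to the centromere were left out, and arm lengths were taken from the last listed peak. 3L had 15.6 peaks per Mb (95% Poisson interval 14.0 to 17.3). The density was 17.0 on 2L (15.3 to 18.9), 19.1 on 2R (17.2 to 21.2), 17.7 on 3R (16.1 to 19.4) and 16.8 on X (15.1 to 18.7). Each of these intervals overlapped that of 3L. The ratio to the other 4 arms together was 0.885 (0.785 to 0.994, exact binomial interval). With 1 Mb left out beside the centromere it was 1.09 (0.984 to 1.2), and with 3 Mb left out 0.989 (0.876 to 1.11). Without the fullest 1 Mb bin of each arm it was 0.945 (0.834 to 1.07), and for peaks at or above the median score 0.776 (0.632 to 0.946). These intervals take each peak as independent, which the crowded loci contradict. Counting merged regions, 3L had 12.9 per Mb, against 14.9 on 2L, 13.6 on 2R, 14.1 on 3R and 10.8 on X, a ratio of 0.966 to the pooled arms. Counting low-control peaks alone, the ratio turned to 1.01. That turn rested on X, which had 5.0 low-control peaks per Mb. 3L had 8.98, below 10.3 on 2L and 10.9 on 3R and above 8.56 on 2R.

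The share of peaks at a low control level was 57.5% on 3L, close to 60.3% on 2L and 61.8% on 3R, and above 44.8% on 2R and 29.7% on X. Close neighbours were most frequent on X and 2R, and 33.9% of 3L peaks had another within 1000 bp, against 31.0% on 2L, 50.5% on 2R, 35.7% on 3R and 60.9% on X. The median gap was 23232 bp on 3L, 21906 bp on 2L, 5229 bp on 2R, 14467 bp on 3R and 1574 bp on X. Loci of at least 5 peaks held 27.6% of the 3L peaks, against 22.9% on 2L, 48.6% on 2R, 31.4% on 3R and 52.5% on X. In spacing and control level 3L was thus like 2L and 3R, and the exact binomial intervals of these 3 arms overlapped for low control and for close neighbours, while those of 2R and X did not overlap that of 3L.

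**Figure D5:**
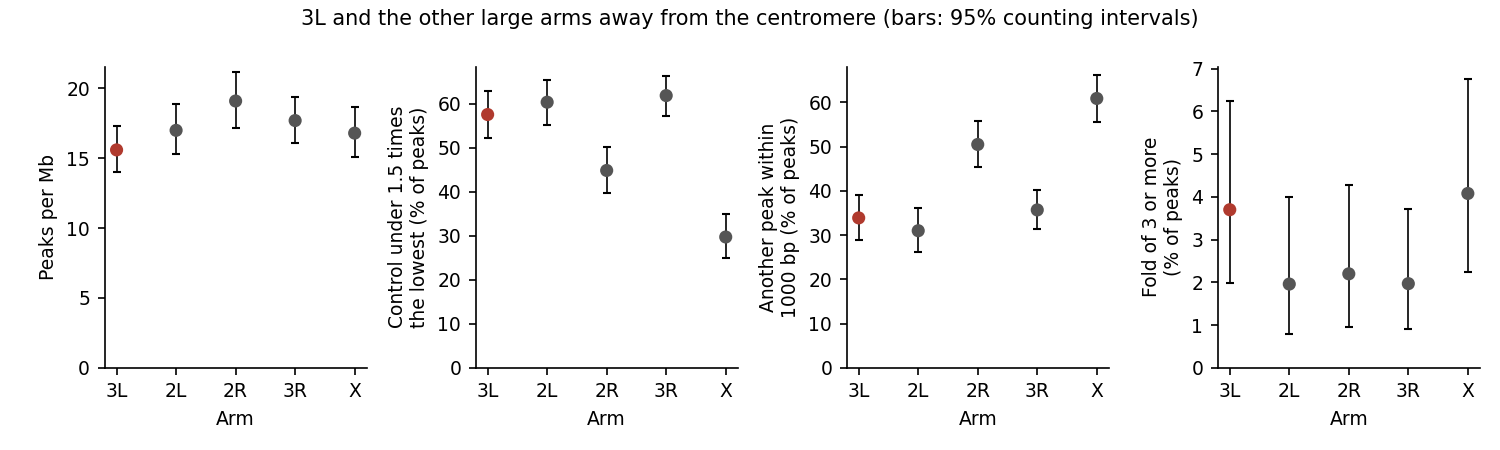
Peaks per Mb, share of low-control peaks (below 1.5 times the lowest level), share with another peak within 1000 bp, and share with a fold of at least 3, for 3L (red) and the other large arms away from the centromere (grey). Points are values and bars 95% counting intervals (Poisson for the density, exact binomial for shares); 3L lies with 2L and 3R in the 2 middle panels, and the intervals for 3-fold peaks overlap on all 5 arms.

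Enrichment on 3L did not stand out from that on the other arms. The median fold was 1.94 on 3L, 1.94 on 2L, 1.88 on 2R, 1.95 on 3R and 1.89 on X. At a low control level it was 2.09 on 3L and 2.09 on the other 4 arms together, at 1.5 to 2.5 times the lowest 1.84 and 1.85, and at 2.5 times or more 1.64 and 1.68. Peaks with 3-fold enrichment or more were 3.70% of those on 3L (1.99% to 6.25%), against 1.96% on 2L, 2.2% on 2R, 1.97% on 3R and 4.08% on X, with overlapping exact binomial intervals. For the wide, strong peaks at a low control level the shares were 2.56% on 3L (1.18% to 4.81%) and 1.45% on the other arms together (0.909% to 2.18%), which overlap as well.

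In width, 3L and the pooled other arms lay apart where control was high. At a low control level 10.4% of the 3L peaks (6.55% to 15.5%) and 9.57% of the other arms' peaks (7.57% to 11.9%) were at least 200 bp wide. At 2.5 times the lowest level or more, 16 of 78 3L peaks were that wide (20.5%, 95% interval 12.2% to 31.2%), against 187 of 464 on the other arms (40.3%, 35.8% to 44.9%). The shares there were 36.5% on 2L, 36.8% on 2R, 39.8% on 3R and 46.2% on X (37.9% to 54.7%). Of the 4 intervals that of X alone did not overlap the interval of 3L. At 1.5 to 2.5 times the lowest level the shares were 11.3% on 3L and 11.6% on the other arms together. The median width at 2.5 times or more was 124 bp on 3L and 162 bp on the other arms together. At 1.5 to 2.5 times it was 114 and 101.5 bp. For the share of wide peaks at 2.5 times or more, the exact binomial intervals of the pooled arms and of 3L did not overlap. The peaks come in loci and are not independent, so this is given as a description with no test.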

How the data were processed

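The data are 1 list of peaks for the whole series, in the narrowPeak layout, made from 2 ChIP and 2 input libraries. Per the submitters' processing notes, Bowtie2 2.2.1 was used. Not given in the sources used here are the caller, its options, the build, and any pooling. The deposited score is 10 times the deposited −log10 q cut to a whole number, in 100% of peaks. The deposited fold is the ratio of ChIP over control. The summit offset is deposited in bp, and starts were shifted to count from 1.

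Levels were solved under the formulas of MACS2: fold is (ChIP + 1)/(control + 1), and p is the Poisson tail above the ChIP level. A whole-number ChIP level matched within 1e-04 in 6065 of 6065 peaks. The unit of the control levels, 0.5756, implies 1.737 times as many control as ChIP tags. Of the control levels, 5170 were set at the summit, 424 over 1000 bp, 151 over 10000 bp and 320 at the lowest value. Of the 575 set over the longer windows, 575 were whole at 69 bp, and at most 112 at a length with no common factor, within 1.1 times the error that rounding of the deposited fold gives. The solving step was also run on simulated peaks made with the same formulas, which cannot show that the deposited list follows them. Such levels are read from the list and are not library totals.

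Peaks within a list are not replicates, so no p-value was computed. Apart from those for differences in median fold, intervals are exact binomial or Poisson at 95%, for counting error only. Named are the 15 peaks of highest −log10 q, all wide, strong, low-control peaks, the 3 widest, the regions with most peaks, and the extreme bins and gaps. The set, these rules and the limits were chosen with earlier results of these data known. Python 3.11.15, numpy 2.4.6, pandas 2.3.3 and scipy 1.17.1 were used. Alternatives were a limit at the median score, merging within 500 bp, a low control level, 1 or 3 Mb beside the centromere, leaving out the fullest bin of each arm, and other limits of distance, fold and width.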

Additional observations from a re-analysis of the deposited data

How the results depend on the processing

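Of 53 alternative values, 31 stayed within the interval of the reported one or, for the number of peaks, within 1.5 times. The ratio of 3L density to the other arms turned from 0.885 to 1.01 among low-control peaks, where X had 5.0 per Mb and 3L stayed below 2L and 3R (8.98, 10.3 and 10.9), and to 1.09 with 1 Mb left out beside the centromere, and the cause was not tested. The control limit lowered the number of peaks to 202 and the density to 8.98 per Mb, by removing peaks. The share with a neighbour within 1000 bp fell to 7.92% when only low-control peaks counted as neighbours. For the same 202 peaks it was 9.90% when all peaks of the set counted. The limit at the median score gave 119 peaks, 5.29 per Mb, a density ratio of 0.776, differences from the other arms of 0.11 in median fold and −14 bp in median width, 10.9% of peaks at 3-fold and 26.9% at 200 bp. It raises the last 2 shares by dropping weak peaks. Merging gave 12.9 per Mb, 14.4% with a neighbour and 19.9% at 200 bp, by construction. With 1 Mb left out, 3L had 21.2 peaks per Mb and 46.4% with a neighbour. Distances of 500 and 5000 bp gave 26.8% and 50.1%, a fold of 2.5 gave 8.83%, and widths of 150 and 300 bp gave 25.9% and 4.56%. No paired analysis was possible because single libraries have no values in the list, and for the same reason no replicate could be left out. Library depth is unknown.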
